A study of Mus musculus with 2 samples.

Results

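The translation initiation factors are the genes whose symbol in the deposited count table starts with Eif followed by a digit from 1 to 6, without pseudogene symbols. The rule found 56 of 30538 genes, of which 55 are protein coding. They were read in 2 RNA sequencing libraries of CD11b+, Ly6G-, Ly6C-low cells sorted from mouse spleen, 1 library from Ch25h-/- mice and 1 from C57BL/6 mice. Ch25h makes 25-hydroxycholesterol from cholesterol, and the comparison asks how the cells differ when the gene is missing. All mice had received 100000 Listeria monocytogenes intravenously and were sampled on day 3, with about 100000 cells per sort, so both genotypes were infected. The age, the sex, the number of mice per library and the origin of the Ch25h allele are not given in the sources used here. The library totals were 15986392 gene counts for Ch25h-/- and 16957371 for C57BL/6. The targeted gene, Ch25h, had 0 counts in the Ch25h-/- library and 3 in the C57BL/6 library, at or under the floor of 3 counts, so it does not check the labels. The labels call the sorted cells resident macrophages. Red pulp macrophage markers summed to 271 CPM in the Ch25h-/- library and 439 CPM in the C57BL/6 library. Ly6C-low monocyte markers summed to 2862 CPM in the Ch25h-/- library and 2365 CPM in the C57BL/6 library. Most of that sum came from Itgal (1784 CPM in the Ch25h-/- library and 1341 in the C57BL/6 library) and Spn (676 and 471). Of the 7 genes in that list, 3 had a higher level in the Ch25h-/- library and 4 a lower one, so its sum does not describe most of its genes. The sums for natural killer and cytotoxic lymphocyte markers were 17174 CPM in the Ch25h-/- library and 10637 CPM in the C57BL/6 library. Of these, Gzmb had 7429 CPM in the Ch25h-/- library and 4356 CPM in the C57BL/6 library, and Gzma had 5274 and 3518 CPM. All sums are without regard to gene length. The libraries are therefore named here by their gate.

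Translation initiation brings the small ribosomal subunit, the initiator tRNA and the mRNA together at the start codon. The factor eIF2 carries the initiator tRNA and is recharged with GTP by eIF2B, while the eIF4 group binds the mRNA cap and unwinds the leader, and eIF3 holds the complex together on the small subunit. Phosphorylation of eIF2 by stress-activated kinases lowers initiation on most mRNAs and favours a few, such as that of Atf4, which is called the integrated stress response. In macrophages the kinase PKR is induced by interferon, and the mTORC1 pathway controls eIF4E through its binding repressors.

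Levels are CPM, the counts scaled by TMM to a common library size, and ratios are Ch25h-/- over C57BL/6 on the log2 scale. Brackets hold exact 95% intervals. With 1 library per genotype there are no replicates, no p-value was computed, and every interval covers counting error only, without the variation between mice, sorts or library preparations. A gene was measured when it averaged at least 1 CPM, which 53 of the 56 members and 11972 of all genes did. A gene is called higher or lower at a given fold when its ratio is at least that large and its interval excludes a ratio of 1.

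No measured initiation factor was called at 2-fold between the libraries. At that rule 0 of 53 measured members were higher and 0 were lower, against 2.07% and 5.77% of all measured genes. At 1.5-fold, 1 member was higher (Eif4e) and 1 was lower (Eif2ak3), against 7.35% and 11.2% of all measured genes. At 1.2-fold, 8 members (15.1%) were higher and 5 (9.43%) lower, against 20.6% and 20.4% of all measured genes. Most members are abundant, with 48 of them at a mean of at least 20 CPM. Of those 48, 7 were higher and 5 lower at 1.2-fold, where the shares among the 7298 measured genes of that abundance were 22.3% and 17.4%. At 1.5-fold 1 was higher and 1 lower, against 5.28% and 6.92% of those genes, and at 2-fold 0 were higher and 0 lower, against 0.754% and 2.4%. The members' shares were below those of both backgrounds at every fold. The ratios of 38 members lay within 1.2-fold of 1.

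The median log2 ratio of the measured members was 0.07, against 0.01 over all measured genes and 0.04 over measured genes of at least 20 CPM. A ratio above 0 was seen for 32 of 53 members, against 51.8% of all measured genes and 55.6% of those of at least 20 CPM. The whole interval lay above 0 for 22 and below 0 for 13. Over all measured genes, 31% had an interval wholly above 0 and 27.5% one wholly below. Of the 48 abundant members 21 lay wholly above and 13 wholly below, against 39% and 28.9% of genes of that abundance. Together the members took 0.871% of counts in the Ch25h-/- library and 0.870% in the C57BL/6 library, with exact intervals of 0.867 to 0.876% for Ch25h-/- and 0.865 to 0.874% for C57BL/6. The summed share of initiation factor mRNA was thus level between the libraries, and the differences lay between individual factors. The cytosolic ribosomal protein genes, the other large translation family, had a median log2 ratio of -0.13 over 81 measured genes, with 3 higher (3.70%) and 22 lower (27.2%) at 1.2-fold. At that fold 20.6% of all measured genes were higher and 20.4% lower.

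**Figure D1:**
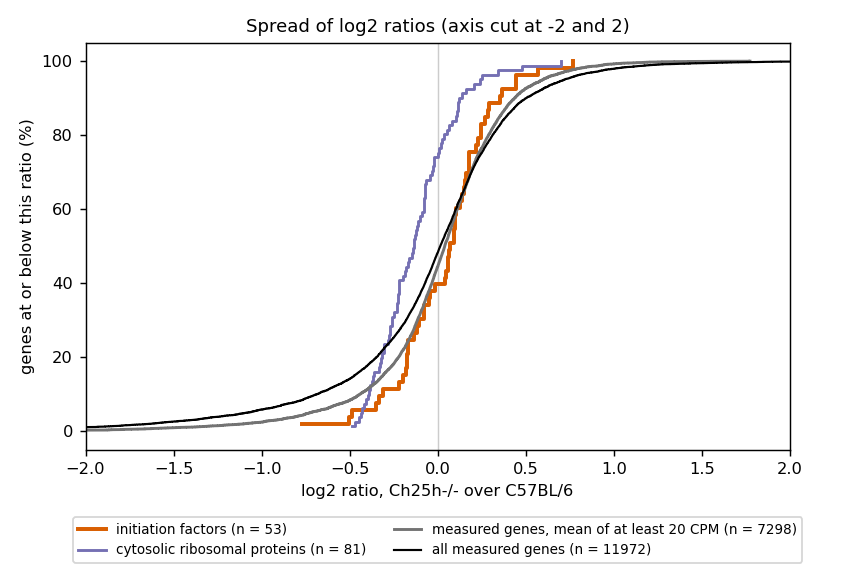
Cumulative share of genes (vertical axis, percent) at or below each log2 ratio of Ch25h-/- over C57BL/6 (horizontal axis) for initiation factors, cytosolic ribosomal proteins and measured genes. The curve of the 53 initiation factors is steep around its median of 0.07, and that of the 81 ribosomal protein genes has its median at -0.13.

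Of the 3 members that were not measured, all had 0 counts in both libraries, which allows up to 3 counts in each (0.189 CPM in the Ch25h-/- library and 0.175 CPM in the C57BL/6 library). They are Eif4e1b, a paralog of Eif4e, Eif2s3y, the eIF2 gamma gene on the Y chromosome, and Eif2c5. The annotation gives Eif2c5 as a long noncoding RNA on the X chromosome. Its symbol follows the older Eif2c names of the Argonaute genes, so it is a member by its name alone.

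The eIF1 and eIF1A proteins keep the small subunit open for scanning and guard the choice of start codon. Eif1 had 3060 counts (193 CPM) in the Ch25h-/- library against 4211 counts (246 CPM) in the C57BL/6 library, a log2 ratio of -0.35 (-0.42 to -0.28). Its paralog Eif1b had 423 counts (26.7 CPM) in the Ch25h-/- library against 439 (25.7 CPM) in the C57BL/6 library, a ratio of 0.06 (-0.14 to 0.25). Eif1 was thus called lower at 1.2-fold, while the interval of Eif1b held 0. The X-linked eIF1A gene Eif1ax went the other way, with 42.4 CPM in the Ch25h-/- library and 33.1 CPM in the C57BL/6 library, a log2 ratio of 0.35 (0.19 to 0.52). Its autosomal paralog Eif1a stood at 0.18 (0.04 to 0.31), and Eif1ad, which encodes a protein with an eIF1A-type domain, at -0.14 (-0.28 to 0.00).

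All 3 measured genes of eIF2 itself had ratios above 0, as did 51.8% of all measured genes. Eif2s1, the alpha subunit that the stress kinases phosphorylate, had 1231 counts (77.7 CPM) in the Ch25h-/- library against 978 counts (57.2 CPM) in the C57BL/6 library, a log2 ratio of 0.44 (0.32 to 0.57). Eif2s3x, the X-linked gamma subunit that binds the initiator tRNA, had 44.7 CPM in the Ch25h-/- library and 37.1 CPM in the C57BL/6 library (0.27, 0.11 to 0.42). Eif2s2, the beta subunit, stood at 0.18 (0.03 to 0.32). Eif2s1 and Eif2s3x were called higher at 1.2-fold (66.7% of the 3, against 20.6% of all measured genes). The summed level of the 3 subunits was 171.5 CPM in the Ch25h-/- library against 138 CPM in the C57BL/6 library. Of the sequence of Eif2s3x transcripts, 34.6% of 50-base stretches also occur in another annotated gene, so its value is uncertain. Eif2d and Eif2a, which can deliver or recycle initiator tRNA outside the main route, stood at 0.25 (0.12 to 0.37) and 0.14 (0.00 to 0.27).

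The exchange factor eIF2B had ratios on both sides of 0. Of its 5 subunit genes, 3 (60%) had intervals wholly below 0, against 27.5% of all measured genes, and 2 had intervals that held 0. Eif2b4 (delta) had 457 counts (28.8 CPM) in the Ch25h-/- library against 622 counts (36.4 CPM) in the C57BL/6 library, a log2 ratio of -0.33 (-0.51 to -0.16). Eif2b2 (beta) had 559 counts (35.3 CPM) in the Ch25h-/- library against 749 counts (43.8 CPM) in the C57BL/6 library, a ratio of -0.31 (-0.47 to -0.15). Both are regulatory subunits and were called lower at 1.2-fold (40% of the 5, against 20.4% of all measured genes). Eif2b5, the catalytic epsilon subunit, stood at -0.22 (-0.35 to -0.09), and it was the most abundant of the 5 per kilobase of exon, at 21.2 CPM per kilobase in the Ch25h-/- library and 24.7 in the C57BL/6 library. Eif2b1 (alpha) and Eif2b3 (gamma) were at 0.16 (-0.06 to 0.38) and 0.18 (-0.14 to 0.50).

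The 4 kinases of eIF2 alpha spread more widely than any other group of members, from -0.77 to 0.23. Eif2ak3, which encodes the endoplasmic reticulum stress sensor PERK, had 1856 counts (117 CPM) in the Ch25h-/- library against 3418 counts (200 CPM) in the C57BL/6 library. Its log2 ratio of -0.77 (-0.85 to -0.69) was the lowest of all measured members, a 1.71-fold lower level (GRCm38 chr6:70844515-70905245, plus strand). Eif2ak4, the amino acid sensor GCN2, had 581 counts (36.7 CPM) in the Ch25h-/- library against 880 counts (51.4 CPM) in the C57BL/6 library, a ratio of -0.49 (-0.64 to -0.34). Both were called lower at 1.2-fold (50% of the 4, against 20.4% of all measured genes). Eif2ak1, the haem-regulated kinase HRI, was level, with 91.3 CPM in the Ch25h-/- library and 92.2 CPM in the C57BL/6 library (-0.01, -0.12 to 0.09). Eif2ak2, the double-stranded RNA sensor PKR, had 3878 counts (245 CPM) in the Ch25h-/- library against 3569 counts (209 CPM) in the C57BL/6 library, a ratio of 0.23 (0.16 to 0.30) that falls short of 1.2-fold. Per kilobase, Eif2ak2 was the most abundant kinase gene in both libraries, at 47.9 CPM per kilobase in the Ch25h-/- library and 40.8 in the C57BL/6 library. Eif2ak3 ranked next in both, at 19.4 CPM per kilobase in the Ch25h-/- library and 33.1 in the C57BL/6 library.

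**Figure D2:**
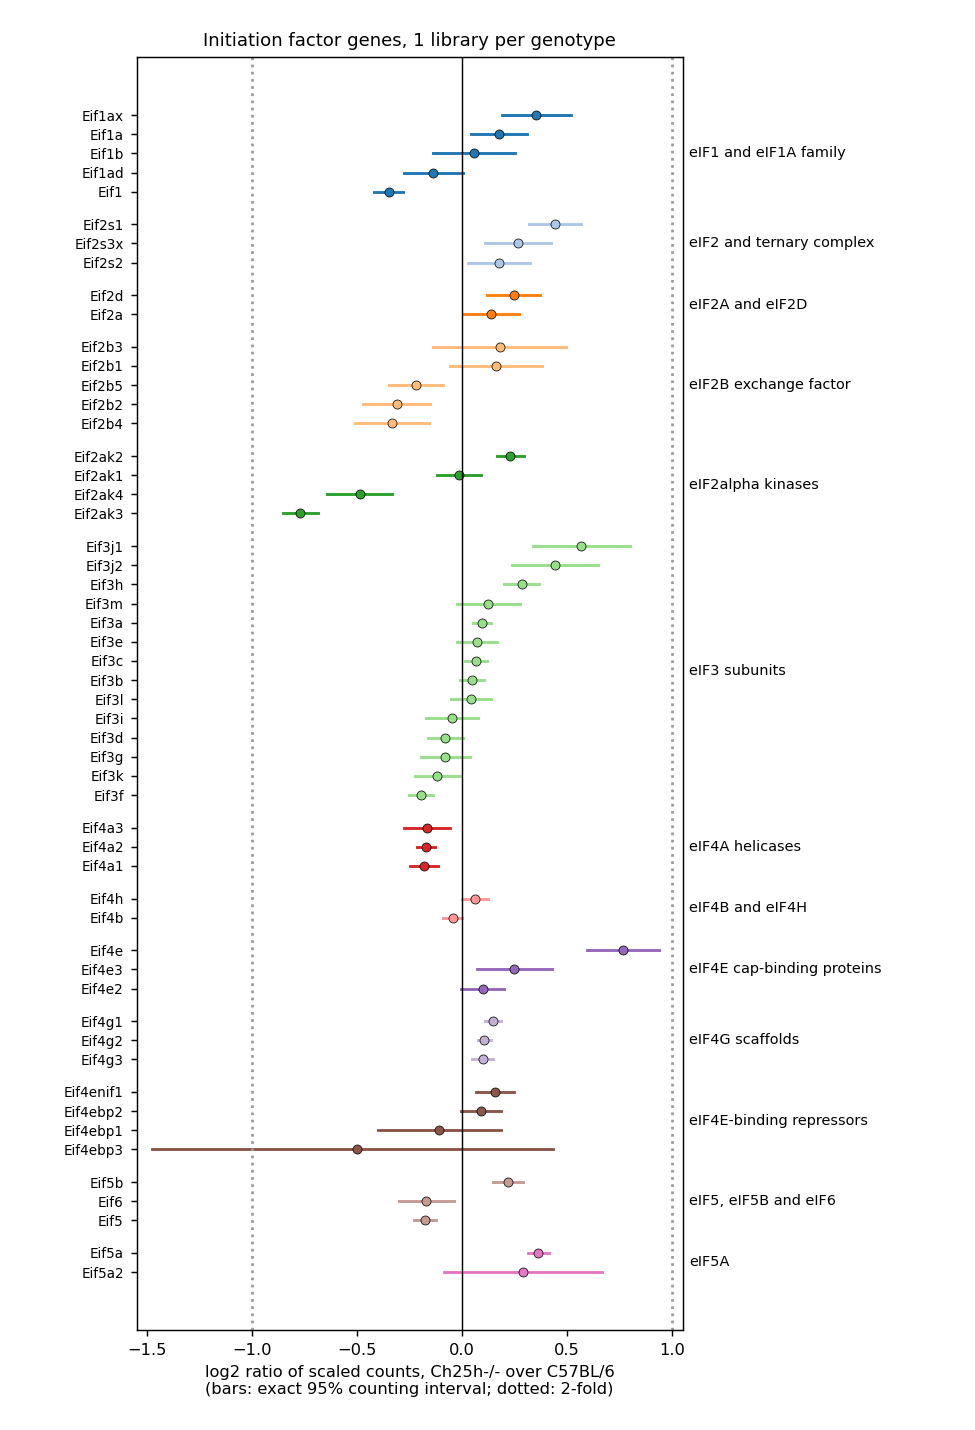
Log2 ratio of scaled counts, Ch25h-/- over C57BL/6 (horizontal axis), for the 53 measured members by role, with exact 95% counting intervals as bars. No point passes 2-fold; Eif4e at 0.77 and Eif2ak3 at -0.77 lie farthest out, and Eif4ebp3 has the widest bar.

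The 250 bases before the RefSeq start of Eif2ak3 are shown because this member had the lowest ratio (GRCm38.p6, chr6:70844265-70844514, plus strand). Capitals mark CCAAT on either strand.
Eif2ak3: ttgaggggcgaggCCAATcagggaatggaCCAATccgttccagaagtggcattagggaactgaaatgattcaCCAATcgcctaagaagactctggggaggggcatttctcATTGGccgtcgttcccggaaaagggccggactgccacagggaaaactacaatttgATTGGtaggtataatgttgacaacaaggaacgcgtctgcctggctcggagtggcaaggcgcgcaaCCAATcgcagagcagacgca
CCAAT occurs 6 times here, all before the start. At least as many matches are found in 0.0791% of the 32851 promoter windows in the RefSeq table, each of 250 bases before and 50 after a start. This share was computed for this gene and motif only, both chosen with results known, so it is not a test. Across members, 15 of the 44 with a window hold CCAAT (34.1%), against 41.1% of all genes and 43.3% of measured genes with a window. The 15, Eif2ak3 among them, had a median log2 ratio of -0.18 with 5 above 0, and the 27 measured members without a match had one of 0.10. For Eif2ak2, the interferon-induced kinase, a short stretch just after its start is shown, with a match to the core of the interferon-stimulated response element, GAAA, any 2 bases and GAAA, in capitals (chr17:78882535-78882564, minus strand).
Eif2ak2: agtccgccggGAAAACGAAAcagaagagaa
This motif, on either strand, is held by 4 of the 44 members (Eif2ak2, Eif2s1, Eif2s3x and Eif3a; 9.09%) and by 3.99% of all genes with a window. The cyclic AMP response element TGACGTCA, searched on both strands, matched 0 of the 44 members and 2.03% of all genes. A match describes these letters only.

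Genes downstream of eIF2 phosphorylation are listed beside the kinases. Of 18 integrated stress response targets 16 were measured, with 2 higher and 11 lower at 1.2-fold and 0 higher and 3 lower at 2-fold, for a median log2 ratio of -0.45. At 1.2-fold these are 12.5% higher and 68.8% lower, against 20.6% and 20.4% of all measured genes, and at 2-fold the shares over all measured genes were 2.07% higher and 5.77% lower. The 3 past 2-fold were Atf3, a stress transcription factor, Ppp1r15a, the inducible phosphatase subunit that reverses eIF2 phosphorylation, and Slc7a11, the cystine transporter. Atf3 had 26.4 CPM in the Ch25h-/- library against 97.1 CPM in the C57BL/6 library (-1.88, -2.03 to -1.72), and Slc7a11 stood at -1.28 (-1.43 to -1.13). Ppp1r15a had 2997 counts (189 CPM) in the Ch25h-/- library against 8108 counts (474 CPM) in the C57BL/6 library, a log2 ratio of -1.32 (-1.39 to -1.26). Its constitutive counterpart Ppp1r15b, the gene of the list with the most counts over both libraries together, was nearly level at 381 CPM in the Ch25h-/- library and 370 CPM in the C57BL/6 library (0.04, -0.01 to 0.09). Atf4 itself had 238 CPM in the Ch25h-/- library and 287 CPM in the C57BL/6 library (-0.27, -0.33 to -0.21). The amino acid synthesis genes Asns (0.53) and Psat1 (0.47) were the 2 higher ones. Several of these genes, Atf3 and Ppp1r15a among them, also respond to signals other than eIF2 phosphorylation, and no readout of that phosphorylation is in these data.

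The lower kinase and stress genes stand beside differences in cell type markers. Over all measured genes, 20.6% were higher and 20.4% lower at 1.2-fold. Of 8 red pulp macrophage markers, 6 were lower and 1 higher at 1.2-fold, with a summed level of 271 CPM in the Ch25h-/- library and 439 CPM in the C57BL/6 library. Of 8 conventional dendritic cell markers 6 were measured, with 5 lower and 1 higher (Itgax, 0.30). The list summed to 702 CPM in the Ch25h-/- library and 1666 CPM in the C57BL/6 library. Fscn1 (171 CPM in the Ch25h-/- library against 746 CPM in the C57BL/6 library) and Ccr7 (109 against 413 CPM) had the largest falls in CPM. The 2 unmeasured markers went the other way. Xcr1 had 6 counts in the Ch25h-/- library and 0 in the C57BL/6 library, and Clec9a had 13 and 5. Of 6 B cell markers, 5 were lower and 0 higher, at 756 CPM in the Ch25h-/- library and 1216 CPM in the C57BL/6 library. Their part in the lower levels of Eif2ak3 and Eif2ak4 was not tested. In such bulk samples fewer cells of a type and less RNA per cell cannot be told apart.

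The eIF3 complex is the largest factor, and the ratios of its 14 genes were mostly near 0. Their median log2 ratio was 0.06, with 3 higher and 0 lower at 1.2-fold and 11 within 1.2-fold. The share called higher, 21.4%, was near the 20.6% of all measured genes. The 3 higher genes were Eif3j1, Eif3j2 and Eif3h. Eif3j1 and Eif3j2 encode the loosely bound j subunit and share most of their sequence: 91.8% of the 50-base stretches of Eif3j2 also occur in another gene, most often Eif3j1, so how reads were split between them is not known. Taken as 1 locus they had 822 counts (51.9 CPM) in the Ch25h-/- library against 628 counts (36.7 CPM) in the C57BL/6 library, a log2 ratio of 0.50 (0.35 to 0.65). Eif3h had 2420 counts (153 CPM) in the Ch25h-/- library against 2146 counts (125 CPM) in the C57BL/6 library, a ratio of 0.28 (0.20 to 0.37), and 20.3% of its 50-base stretches occur in other genes.

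The core subunits of eIF3 were close to level. Eif3a stood at 0.09 (0.05 to 0.14), Eif3b at 0.05 (-0.01 to 0.11) and Eif3c at 0.07 (0.02 to 0.12). Eif3f, a subunit with an MPN domain, had the lowest ratio of the complex. It had 4495 counts (284 CPM) in the Ch25h-/- library against 5567 counts (325 CPM) in the C57BL/6 library, a log2 ratio of -0.20 (-0.25 to -0.14). Eif3k (-0.12) also had an interval wholly below 0. Eif3e, Eif3l, Eif3m, Eif3i, Eif3d and Eif3g lay between -0.08 and 0.13 with intervals that held 0. Another gene on the opposite strand overlaps 43.3% of the exon bases of Eif3d.

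Levels per kilobase of exon differed widely among eIF3 genes although their proteins act in 1 complex. They ran from 4.07 CPM per kilobase for Eif3j1 to 109 for Eif3c in the Ch25h-/- library, and from 2.75 for Eif3j1 to 113 for Eif3f in the C57BL/6 library. Eif3b, Eif3c, Eif3f and Eif3h were all at 77.8 CPM per kilobase or more in both libraries, and Eif3e, Eif3i and Eif3m lay between 15.5 and 17.7. Exon length here is the union over all annotated transcripts, such as 6719 bases for Eif3e, so a gene with annotated exons that these cells do not use gets a lower value.

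**Figure D3:**
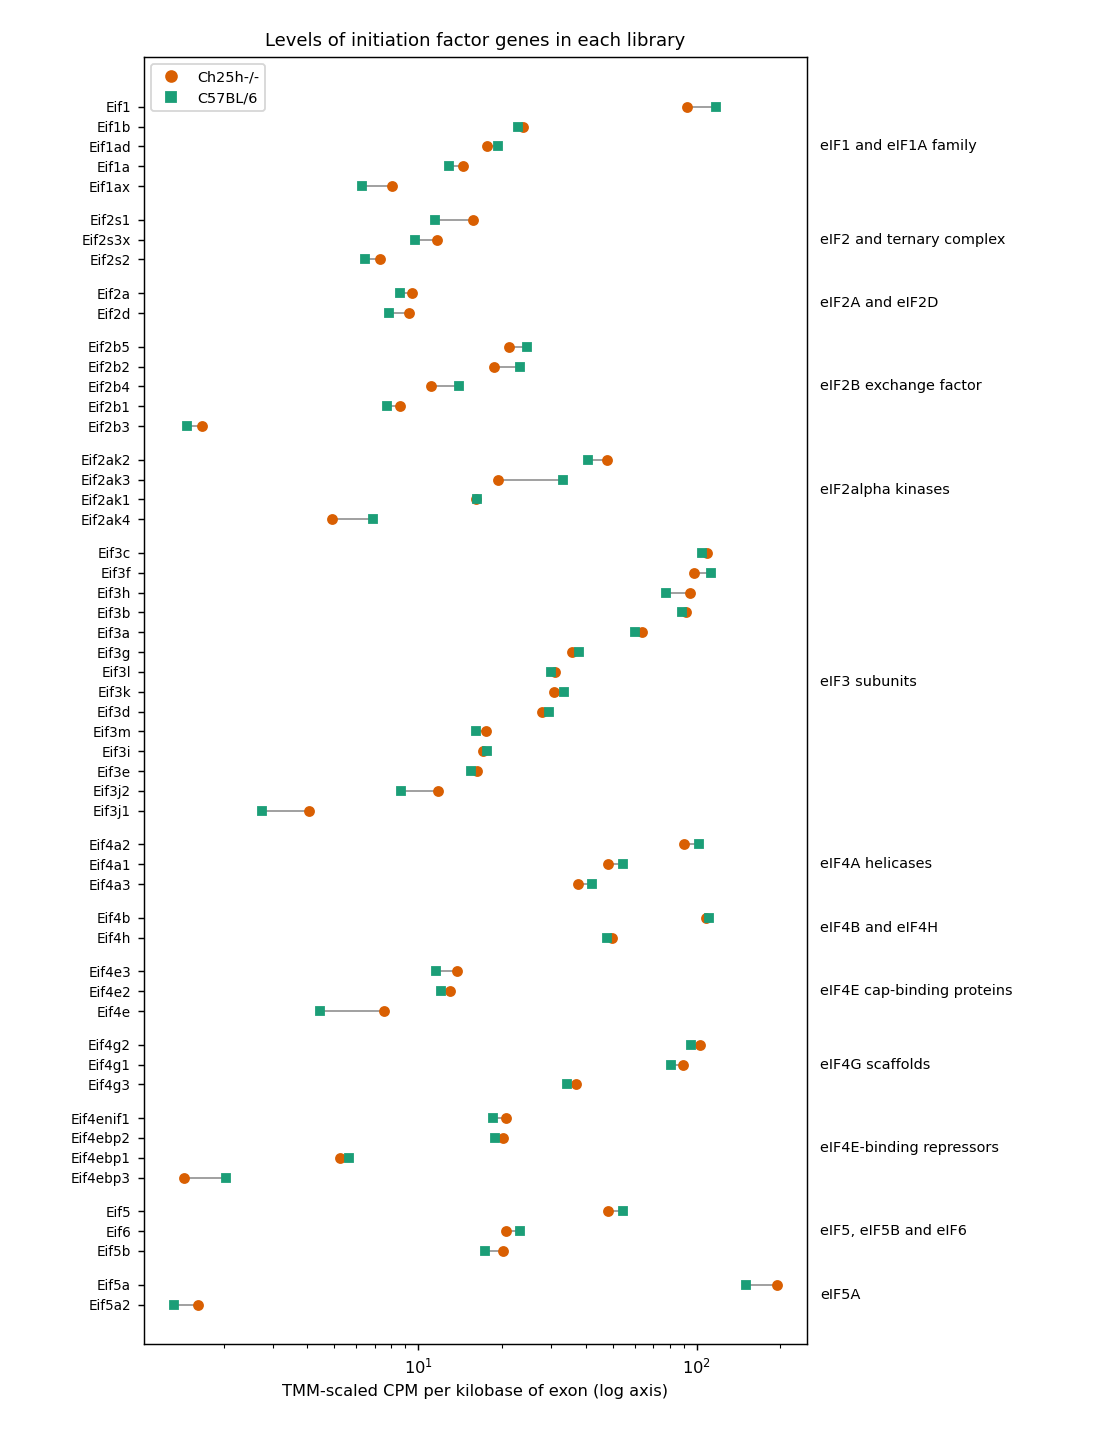
Level of each measured member in the Ch25h-/- library (circles) and the C57BL/6 library (squares), in TMM-scaled CPM per kilobase of exon on a log axis, by role. The spread between genes, from 1.44 to 194 in the Ch25h-/- library, is far wider than the gap between the libraries for any gene.

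Within the cap-binding complex, the cap binder Eif4e had the highest ratio and the helicases had ratios below 0. Eif4e, the cap-binding protein that mTORC1 signalling controls, had 720 counts (45.4 CPM) in the Ch25h-/- library against 457 counts (26.7 CPM) in the C57BL/6 library. Its log2 ratio of 0.77 (0.60 to 0.94), a 1.70-fold higher level, was the highest of all measured members (GRCm38 chr3:138526179-138559696, plus strand). Its relatives had smaller ratios: Eif4e3 stood at 0.25 (0.07 to 0.43) and Eif4e2, which encodes the translation repressor 4EHP, at 0.10 (0.00 to 0.20). Eif4e was the least abundant of the 3 per kilobase in both libraries, at 7.56 CPM per kilobase in the Ch25h-/- library and 4.45 in the C57BL/6 library.

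The 3 eIF4A helicase genes had nearly the same ratio. Eif4a1 had 3300 counts (208 CPM) in the Ch25h-/- library against 4038 counts (236 CPM) in the C57BL/6 library, a log2 ratio of -0.18 (-0.25 to -0.11). Eif4a2 had 7643 counts (482 CPM) in the Ch25h-/- library against 9304 counts (544 CPM) in the C57BL/6 library (-0.17, -0.22 to -0.13). Eif4a3, which serves in the exon junction complex rather than in initiation, stood at -0.17 (-0.28 to -0.06). All 3 intervals lay below 0, against 27.5% of all measured genes and 28.9% of those of at least 20 CPM. None of the ratios reached 1.2-fold, and intervals are narrow at these counts. Other genes overlap 13.3% of the exon bases of Eif4a2, among them Rfc4 on the opposite strand and the small nucleolar RNA genes Snora81 and Snord2. Of the 50-base stretches of Eif4a1, 28.4% occur in other genes, pseudogenes included. The helicase partners Eif4b and Eif4h were close to level, at -0.04 (-0.09 to 0.00) and 0.06 (0.00 to 0.12).

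All 3 scaffold genes of the eIF4G family had intervals wholly above 0, against 31% of all measured genes and 39% of those of at least 20 CPM. Their ratios were under 1.2-fold, and at counts this high the interval of even a small ratio can exclude 0. Eif4g1 had 10337 counts (652 CPM) in the Ch25h-/- library against 10076 counts (589 CPM) in the C57BL/6 library, a log2 ratio of 0.15 (0.11 to 0.19). Eif4g2, which encodes DAP5, a relative that lacks the eIF4E-binding site, had 16520 counts in the Ch25h-/- library against 16577 in the C57BL/6 library (0.11, 0.08 to 0.14). Eif4g3 stood at 0.10 (0.05 to 0.15). Of the repressors that compete with eIF4G for eIF4E, none was called at 1.2-fold. Eif4ebp2 had 116 CPM in the Ch25h-/- library and 109 CPM in the C57BL/6 library (0.09, 0.00 to 0.18), and Eif4ebp1 had 183 counts in the Ch25h-/- library against 213 in the C57BL/6 library (-0.11, -0.40 to 0.18). Eif4ebp3 had 17 counts in the Ch25h-/- library and 26 in the C57BL/6 library, and its interval of -1.48 to 0.44 includes a 2-fold lower level, so a difference was not detectable at this depth. Another gene overlaps 67.3% of its exon bases. Per kilobase, Eif4ebp2 was at 20.1 CPM per kilobase in the Ch25h-/- library and 18.9 in the C57BL/6 library, above Eif4e in both. Eif4enif1, which encodes the shuttling partner 4E-T, stood at 0.16 (0.07 to 0.25).

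The 250 bases before the second RefSeq start of Eif4e, the member with the highest ratio, are shown (GRCm38.p6, chr3:138527018-138527267, plus strand). This start was taken because its window holds CACGTG. Capitals mark the E-box CACGTG, the site that MYC-family and USF factors bind, which reads the same on both strands.
Eif4e: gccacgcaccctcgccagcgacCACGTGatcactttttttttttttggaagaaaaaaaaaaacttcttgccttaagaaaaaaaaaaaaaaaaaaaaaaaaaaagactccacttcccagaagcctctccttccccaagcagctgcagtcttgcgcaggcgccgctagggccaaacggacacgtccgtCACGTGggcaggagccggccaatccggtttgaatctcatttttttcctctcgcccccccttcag
The E-box occurs 2 times in this stretch and is absent from the window of the other Eif4e start. It is held by 10 of the 44 members with a window (22.7%), against 8.09% of all 27025 genes with a window and 11.8% of the 8986 measured ones. The 10 members with a match were Eif1b, Eif3a, Eif3f, Eif3k, Eif4a1, Eif4e, Eif4g1, Eif4h, Eif5a and Eif5a2. Their median log2 ratio was 0.08, with 7 above 0 and 3 below, and that of the 32 measured members without a match was 0.06. Sites of 4 members that went different ways are shown, 1 higher (Eif5a) and 3 below 0, with the E-box in capitals (chr11:69921443-69921472, chr7:108934335-108934364, chr7:28981915-28981944 and chr11:69672595-69672624; Eif3f on the plus strand, the others on the minus strand).
Eif5a: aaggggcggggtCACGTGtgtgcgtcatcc
Eif3f: caagatatgattCACGTGgtataaatttag
Eif3k: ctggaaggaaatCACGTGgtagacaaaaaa
Eif4a1: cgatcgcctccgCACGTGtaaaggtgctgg
The ETS-type motif CCGGAAG, searched on both strands, was held by 16 of the 44 members (36.4%), against 9.93% of all genes and 20.8% of measured genes with a window. Members with and without it had median log2 ratios of 0.06 and 0.08.

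The last steps of initiation are subunit joining and release. Eif5, which triggers GTP hydrolysis on eIF2, had 5214 counts (329 CPM) in the Ch25h-/- library against 6359 counts (372 CPM) in the C57BL/6 library, a log2 ratio of -0.18 (-0.23 to -0.12). Eif5b, the GTPase that joins the large subunit, had 3116 counts (197 CPM) in the Ch25h-/- library against 2891 counts (169 CPM) in the C57BL/6 library (0.22, 0.15 to 0.29). Eif6, which keeps free large subunits apart from small ones, stood at -0.17 (-0.30 to -0.04). These 3 intervals exclude 0, where 31% of all measured genes had one wholly above 0 and 27.5% one wholly below. Among measured genes of at least 20 CPM the shares were 39% and 28.9%. None of the 3 ratios reached 1.2-fold.

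Eif5a was the most abundant member per kilobase in both libraries. It encodes the hypusine-carrying factor that helps ribosomes through difficult stretches. It had 7299 counts (461 CPM) in the Ch25h-/- library against 6131 counts (358 CPM) in the C57BL/6 library, a log2 ratio of 0.36 (0.31 to 0.41). Per kilobase this is 194 CPM in the Ch25h-/- library and 151 CPM in the C57BL/6 library. Its paralog Eif5a2 had 129 counts in the Ch25h-/- library against 114 in the C57BL/6 library (0.29, -0.09 to 0.67). Of the 2 hypusine enzymes, Dhps stood at 0.34 (0.12 to 0.56) and Dohh at -0.01 (-0.29 to 0.28).

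Proliferation and cytotoxic lymphocyte genes were higher beside Eif4e, Eif5a and Eif2s1. All 24 cell cycle genes were higher at 1.2-fold, with a summed level of 3943 CPM in the Ch25h-/- library and 2308 CPM in the C57BL/6 library. At this fold 20.6% of all measured genes were higher and 20.4% lower. All 8 natural killer and cytotoxic lymphocyte markers were higher as well, at 17174 CPM in the Ch25h-/- library and 10637 CPM in the C57BL/6 library. The neutrophil list (7 of 7 higher; 1992 CPM in the Ch25h-/- library and 1094 CPM in the C57BL/6 library) and the Ly6C-high monocyte list (5 of 5 higher; 2075 CPM in the Ch25h-/- library and 1346 CPM in the C57BL/6 library) did the same. Of 7 Ly6C-low monocyte markers, 3 were higher and 3 lower. Of the gate genes, Itgam (CD11b) had 877 CPM in the Ch25h-/- library and 706 CPM in the C57BL/6 library, Ly6c2 (Ly6C) had 173 CPM in the Ch25h-/- library and 103 CPM in the C57BL/6 library (0.75, 0.66 to 0.84), and Ly6g had 41 counts in the Ch25h-/- library and 8 in the C57BL/6 library. Of 5 T cell markers, 1 was higher and 1 lower at 1.2-fold, with sums of 32.8 CPM in both libraries. No marker gene of any list was at 0 in both libraries. The part of these cell types in the ratios of the initiation factors was not tested.

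**Figure D4:**
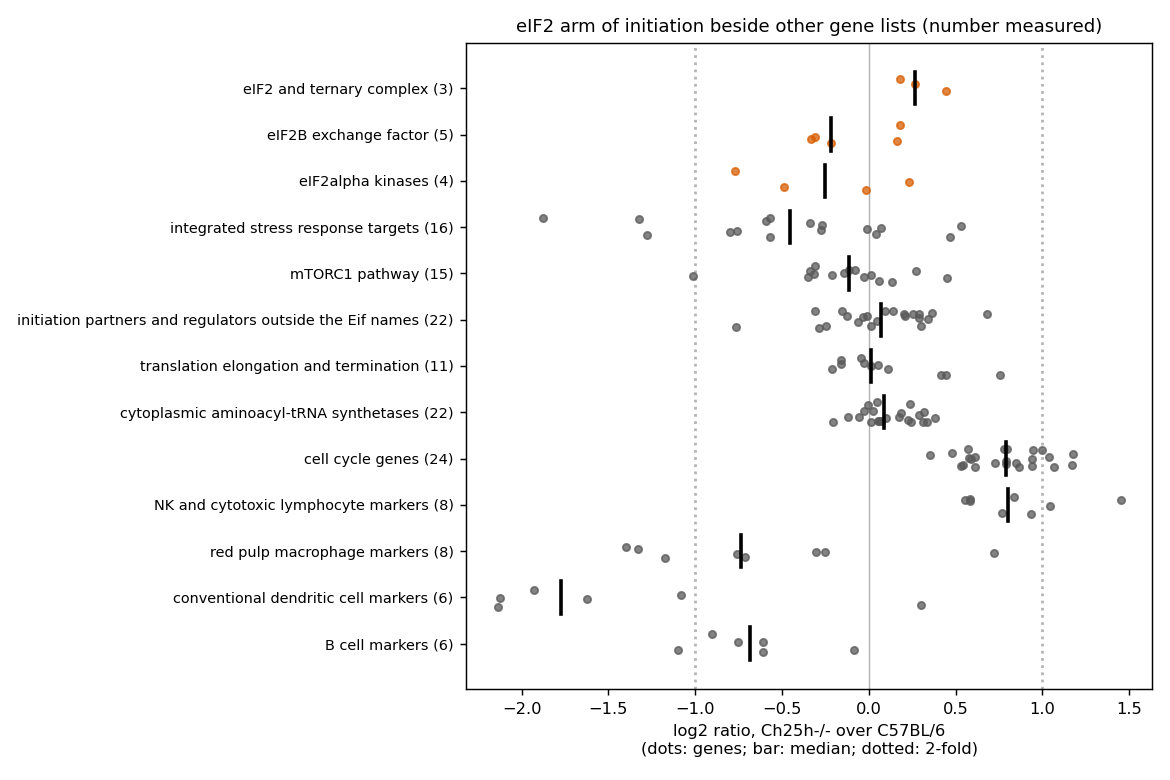
Log2 ratio, Ch25h-/- over C57BL/6 (horizontal axis), of each measured gene (dots) with the median (bar) for the eIF2, eIF2B and eIF2 alpha kinase genes and for other gene lists. The medians of eIF2 (0.27) and eIF2B (-0.22) lie on opposite sides of 0, and those of the cell cycle genes (0.79) and the B cell markers (-0.68) lie farther out. The lowest median is that of the conventional dendritic cell markers (-1.78), and the highest that of the natural killer and cytotoxic lymphocyte markers (0.80).

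Partners and regulators of initiation outside the Eif names had the same median ratio, 0.07. All 22 genes were measured, with 6 higher and 3 lower at 1.2-fold and 0 past 2-fold. The list includes the mitochondrial initiation factors Mtif2 (0.30, among the higher genes) and Mtif3 (-0.24, not called). At 1.2-fold these are 27.3% and 13.6%, against 20.6% and 20.4% of all measured genes. Pabpc1, the poly(A)-binding protein that joins the mRNA ends through eIF4G, had the most counts, at 1534 CPM in the Ch25h-/- library and 1394 CPM in the C57BL/6 library (0.14, 0.11 to 0.16). The pair past 1.5-fold was chosen after its values were seen. Mcts1, a reinitiation factor, had 615 counts (38.8 CPM) in the Ch25h-/- library against 414 counts (24.2 CPM) in the C57BL/6 library (0.68, 0.50 to 0.87). Cyfip1, which can repress eIF4E and also regulates actin, had 1918 counts (121 CPM) in the Ch25h-/- library against 3516 counts (205 CPM) in the C57BL/6 library (-0.76, -0.84 to -0.68).

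The mTORC1 pathway list had 2 of 15 genes higher (13.3%) and 5 lower (33.3%) at 1.2-fold, against 20.6% and 20.4% of all measured genes, with a median log2 ratio of -0.11. The list mixes activators and inhibitors of mTORC1, so these counts give no direction for the pathway. Of the 5 lower, Tsc1 (-0.35), Sesn2 (-0.34) and Akt1s1 (-0.32) encode inhibitors, and the others were Mtor (-0.31) and Rragd. The 2 higher were Rheb (0.45), which encodes a direct activator, and Akt1. Sesn2 is also counted among the stress response targets. Rragd, a lysosomal GTPase that recruits mTORC1, was past 2-fold with 22 counts in the Ch25h-/- library against 48 in the C57BL/6 library (-1.01, -1.81 to -0.26). Akt1, a kinase upstream of mTORC1 with the most counts of the list, stood at 0.27 (0.21 to 0.34). Of 13 elongation and termination genes 11 were measured, with 3 higher (27.3%) and 0 lower at 1.2-fold, against 20.6% and 20.4% of all measured genes. Their median was 0.01. Eef1a1, which delivers charged tRNA, stood at 0.11 (0.09 to 0.13) from 3579 CPM in the Ch25h-/- library and 3314 CPM in the C57BL/6 library. Of 22 cytoplasmic aminoacyl-tRNA synthetase genes, 5 were higher and 0 lower at 1.2-fold, with a median of 0.09. The share called higher, 22.7%, was near that of all measured genes, 20.6%. The gene of them with the most counts, Vars, stood at -0.21 (-0.26 to -0.16). No gene of the elongation or synthetase lists passed 2-fold.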

How the data were processed

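The authors deposited unnormalized gene counts for the 2 libraries, and these were used unchanged. Per the submitters' processing notes, the submitters worked with GSNAP, with featureCounts and Subread 1.5.2, with edgeR 3.26.8 and with FastQC 0.11.9, and name the builds GRCm38 and mm10. Whether counting used strand or multi-mapped reads is not given in the sources used here. RNA came from TRIzol extracts and a KAPA RNA HyperPrep kit, per the labels. TMM factors were computed with edgeR 4.0.16 in R 4.3.3. Exact Clopper-Pearson intervals of the Ch25h-/- share of both counts were converted to ratios with scipy 1.17.1 in Python 3.11.15. No molecular identifiers are described, so reads may not be separate molecules, and intervals and floors cover counting error only. The steps were tested on simulated counts with sampling noise only. Those counts hold no variation between mice, sorts or library preparations.

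Positions, exon lengths and gene types come from GENCODE M21 (GRCm38), which holds all 56 members. Promoter sequences are RefSeq's (GRCm38.p6) and were matched by symbol for 44 members; Eif1a, Eif2b3, Eif3e, Eif3h, Eif3i, Eif3j2, Eif4e1b, Eif4e3, Eif4ebp1, Eif4ebp3, Eif4g2 and Eif6 had no entry. Members, lists, motifs and folds were chosen with earlier results of these data known. Named genes are members, and those past 2-fold or with the most counts in the partner, stress response, mTORC1, elongation and synthetase lists. Cell type and cell cycle lists are given mainly as counts and sums, and their unnamed genes can be past 2-fold. Other named genes were chosen after their values were seen.

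Scaling was repeated with upper quartile factors, with total counts, with size factors of DESeq2 1.42.0 and with TMM lacking 36 abundant cell-specific genes. Further alternatives were a filter at 5 CPM, a filter at 1 count, a prior count of 2 and a stricter interval rule.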

Additional observations from a re-analysis of the deposited data

How the results depend on the processing

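No paired analysis was possible because each genotype has 1 library, and for the same reason no library could be left out. Of 53 members, 0 were past 2-fold and 1 was past 1.5-fold in each direction under the chosen settings and under all 9 alternatives. At 1.2-fold, 8 higher and 5 lower became 4 higher and 3 lower when the whole interval had to lie past the fold. Eif4e, Eif3j1, Eif2s1, Eif5a, Eif2ak3, Eif2ak4 and Eif1 met that stricter rule. Leaving out members that share over 20% of their 50-base stretches or exon bases with other genes, an alternative chosen after seeing the data, left 46 members with 4 higher and 5 lower. Total counts without factors gave 6 higher, without Eif2s3x and Eif3h, and 5 lower. The median log2 ratio lay between 0.05 and 0.08. Without the 36 abundant cell-specific genes in the totals, members took 0.885% of counts in the Ch25h-/- library and 0.880% in the C57BL/6 library, against 0.871% and 0.870% with all genes. No scaling moved a log2 ratio by more than 0.03. Depth limits Eif4ebp3 most, and the median half-width of the intervals was 0.11 on the log2 scale.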
